A study of Rattus norvegicus with 6 samples.

Results

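The genes described are the cathepsins and LAMP proteins of the lysosome in the jejunum of rats after heat and shake stress. They comprise 10 genes, of which 8 encode cathepsins (Ctsa, Ctsb, Ctsc, Ctsd, Ctsh, Ctsl, Ctss and Ctsz) and 2 encode the lysosome-associated membrane proteins Lamp1 and Lamp2. All non-control probes whose RefSeq accession belongs to 1 of these genes were taken, without regard to their signal. This gave 14 of the 41012 probes on the array, 17512 of which could be named by a RefSeq accession, as 13837 genes. Ctsa had 3 probes, Ctsl and Ctss had 2 each, and the other 7 genes had 1 each. All 14 probes were well above background on all 6 arrays, carried no outlier flag and were not saturated.

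RNA of the jejunum was hybridised to 1-colour Agilent rat arrays, on which the brightness of a spot reports the amount of labelled RNA bound by its probe. The S3d group spent 2 h on each of 3 days at 35°C under shaking of 0.1 × g, and the control group was housed at 25°C. Both groups were male Sprague-Dawley rats aged 6 weeks and weighing 200 ± 20 g. Each group had 3 arrays, each with RNA that the labels describe as pooled from 3 rats of a group of 10. The paper gives fewer rats per group, too few for pools without shared rats. Whether the pools share rats is not given, and p-values measure only the spread between these pooled samples. In RNA of whole tissue, fewer cells of a type and less RNA per cell cannot be told apart.

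Lysosomes are the acidic compartments in which cells break down material delivered by endocytosis and by autophagy. Cathepsins are the main lysosomal proteases and are made as inactive precursors that mature in the acid lumen. Most are cysteine proteases, whereas cathepsin D is an aspartic protease and cathepsin A a serine carboxypeptidase. LAMP1 and LAMP2 are heavily glycosylated proteins that cover the inner face of the lysosomal membrane. In the small intestine, absorptive enterocytes and the macrophages of the lamina propria are rich in lysosomes.

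The sources of the values disagreed on which arrays belong to which group, and no array was reassigned. Each column of the normalized log2 table followed the same-numbered scanner file of the other group (Spearman rho of at least 0.999993 over 41012 probes) more closely than its own file (rho between 0.941 and 0.948). All differences below subtract the control mean from the S3d mean by the labels of the scanner files, and the value of the normalized table by its own labels stands beside them. The direction by the scanner labels is therefore opposite to that of the processed values of the study for 13 of the 14 probes, all but that of Ctsb. It is also opposite to the direction the study gives for Lamp1, Ctsd and Arsa. By the paper's account, RT-PCR of other genes changed the same way as its array values, and no gene described here was among them. Which labels are right was not tested. Each group also lay on a slide of its own, with 450 days between the scans of the 2 slides, and slide, scan and group cannot be told apart. The 75th percentile of the signal ranged from 414 to 430 for control and from 1456 to 1566 for S3d, and between 69.1% and 81.5% of spots were well above background. Over 31137 probes, arrays correlated at 0.984 to 0.995 within groups and at 0.925 to 0.939 between groups. Levels are given on a log2 scale, as the processed signal relative to the 75th percentile of its array, and groups were compared with limma, with Benjamini-Hochberg adjustment over 31367 tested probes.

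Lamp1 and Lamp2 moved in opposite directions. Lamp1, whose product is a widely used marker protein of the lysosomal membrane, was at 3.91, 3.91 and 3.92 on the arrays labelled control 1, 2 and 3. It was at 3.11, 3.05 and 3.02 on those labelled S3d 1, 2 and 3, so the groups did not overlap and replicates lay close together. The difference was a log2 fold change of -0.85 ± 0.059 (SE, n = 3 arrays per group, limma adjusted p = 5.6e-05), which is 1.81-fold lower. With quantile normalization it was -0.52 (limma adjusted p = 0.00040). In the normalized table Lamp1 was at 12.88, 12.87 and 12.80 in the control columns and at 13.36, 13.39 and 13.41 in the S3d columns. The table thus gave a log2 fold change of 0.54 by its own labels (limma adjusted p = 0.00038).

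Lamp2, whose splice forms include the receptor of chaperone-mediated autophagy, was at 1.47, 1.54 and 1.53 on the arrays labelled control. It was at 1.91, 2.12 and 2.11 on those labelled S3d, and all 3 lay above the highest control array. The log2 fold change was 0.54 ± 0.080 (SE, n = 3 per group, limma adjusted p = 0.0013), or 1.45-fold higher, and with quantile normalization it was 0.64. Which splice forms the probe of Lamp2 reads was not examined. The normalized table gave -0.65 by its own labels (limma adjusted p = 0.00097), from control columns at 11.61, 11.86 and 11.84 and S3d columns at 11.07, 11.15 and 11.15.

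Because both genes are read on the same array, the difference of their log2 signals does not depend on a factor common to all spots of that array. A shift that depends on brightness is not removed. Lamp1 lay in the brightest decile of tested probes and Lamp2 in the next, with median log2 fold changes of -0.49 and -0.16. The part of brightness in the ratio was not tested. On the arrays labelled control, Lamp2 minus Lamp1 was -2.44, -2.37 and -2.39, against -1.20, -0.93 and -0.91 on those labelled S3d. The values carry the different binding of both probes and can be compared only between arrays. Between groups the ratio of Lamp2 to Lamp1 differed by 1.39 on the log2 scale, or 2.62-fold, without overlap. In the normalized table the ratio differed by -1.18, again without overlap. The ratio was formed after both genes were seen to differ. An exact test over the 20 splits of the arrays gave p = 0.1 for both sources. That is the lowest value that 3 against 3 arrays allow, so the test cannot decide.

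The bases before the start of Lamp1, Lamp2 and Ctsd are shown because Lamp1 and Ctsd carry several copies of the E-box CACGTG and Lamp2 carries none. The E-box is a palindrome, the same on both strands, that is bound by many basic helix-loop-helix factors, among them TFEB, a known activator of lysosomal genes. Each sequence is the 250 bases upstream of the start in RefSeq on the rat assembly GRCr8, on the strand of the gene, with the E-box in capitals. Lamp1 lies on the minus strand (chr16:83075064-83075313), as do Lamp2 (chrX:122087674-122087923) and Ctsd (chr1:206968822-206969071).
Lamp1: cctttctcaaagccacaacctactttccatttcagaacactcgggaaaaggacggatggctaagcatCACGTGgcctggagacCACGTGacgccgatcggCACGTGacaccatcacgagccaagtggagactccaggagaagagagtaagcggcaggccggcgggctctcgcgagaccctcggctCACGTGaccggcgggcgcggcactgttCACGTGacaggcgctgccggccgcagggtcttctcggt
Lamp2: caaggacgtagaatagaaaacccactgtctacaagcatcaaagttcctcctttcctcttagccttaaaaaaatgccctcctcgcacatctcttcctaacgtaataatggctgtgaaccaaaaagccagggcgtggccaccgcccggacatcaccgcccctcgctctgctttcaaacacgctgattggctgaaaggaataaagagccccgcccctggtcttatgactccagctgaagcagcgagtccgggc
Ctsd: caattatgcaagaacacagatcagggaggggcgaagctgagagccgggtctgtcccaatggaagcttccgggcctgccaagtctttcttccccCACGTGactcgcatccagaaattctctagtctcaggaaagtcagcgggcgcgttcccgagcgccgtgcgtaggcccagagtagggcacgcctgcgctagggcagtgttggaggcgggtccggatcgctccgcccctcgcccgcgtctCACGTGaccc

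Lamp1 held 5 E-boxes, with first bases at -183, -167, -150, -65 and -38 from the start, and 2 of them lay within the longer palindrome TCACGTGA. Ctsd held 2, at -157 and -10, of which 1 lay within TCACGTGA. The other 7 genes with a sequence (Ctsa, Ctsc, Ctsh, Ctsl, Ctss, Ctsz and Lamp2) held no CACGTG in this window, and Ctsb was not in the table. Of 33469 promoters, 1872 (5.59%) held at least 1 CACGTG, 144 (0.430%) at least 2 and 220 (0.657%) a TCACGTGA, and Lamp1 was the 1 promoter with at least 5. Of 83 promoters of other lysosomal genes, 18 (21.7%) held at least 1. A match is a string of letters and not a measured binding site.

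**Figure D1:**
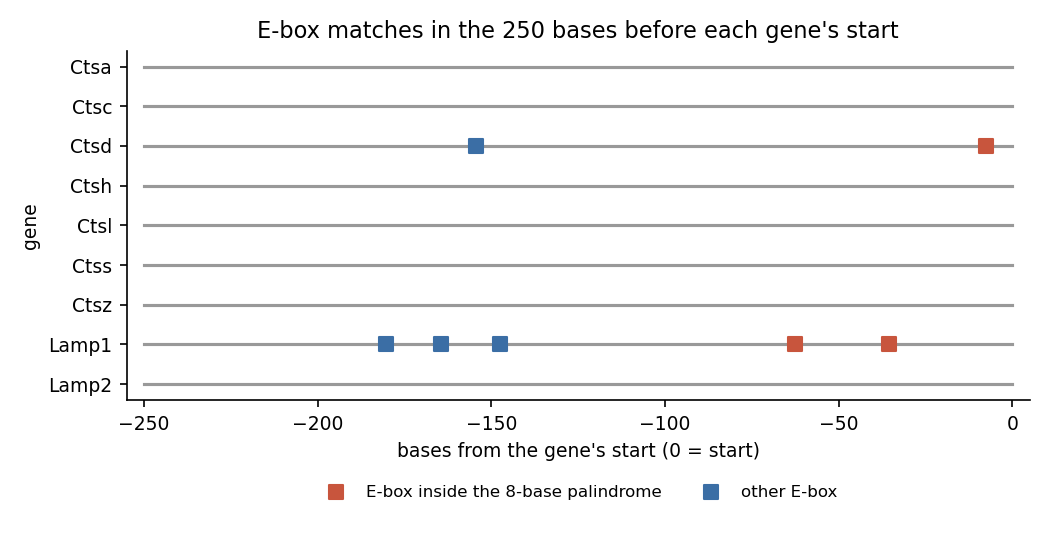
Position of each E-box, in bases from the start of the gene, in the 250 bases upstream of the 9 genes with a RefSeq promoter. Lamp1 has 5 and Ctsd 2, and the other 7 lines are empty.

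Ctsd, which encodes the main aspartic protease of the lysosome, was at 4.77, 4.60 and 4.55 on the arrays labelled control and at 3.86, 3.81 and 3.88 on those labelled S3d. All arrays labelled S3d lay below all labelled control. The log2 fold change was -0.79 ± 0.078 (SE, n = 3 per group, limma adjusted p = 0.00023), or 1.73-fold lower. With quantile normalization it was -0.38 (limma adjusted p = 0.0045), and the normalized table gave 0.41 by its own labels (limma adjusted p = 0.0031).

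Ctsa encodes cathepsin A, a carboxypeptidase that also protects the lysosomal sialidase and beta-galactosidase, and its 3 probes did not give the same value. The brightest, A_44_P474755, was at 6.97, 6.95 and 6.99 on the arrays labelled control and at 5.70, 5.70 and 5.63 on those labelled S3d. The log2 fold change of this probe, -1.29 ± 0.058 (SE, n = 3 per group, limma adjusted p = 1.7e-05), or 2.45-fold lower, was the most negative of the 14 probes with this scaling, whereas with quantile normalization that was Ctsz at -0.68. The probe A_44_P1010500 fell from 6.17, 6.11 and 6.16 to 5.40, 5.38 and 5.27, a log2 fold change of -0.80 (limma adjusted p = 0.00011). The probe A_44_P364672 was at 4.35, 4.22 and 4.35 against 4.34, 4.32 and 4.27, overlapped between groups and did not pass the test (0.00, limma adjusted p = 0.97). With quantile normalization the probes were at -0.61, -0.23 and 0.43, all past the threshold, so that the direction of the last was opposite to that of the others. The normalized table gave 0.58, 0.20 and -0.40 for the same probes. No single value therefore stands for Ctsa.

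Among the cysteine cathepsins of the genes described here, Ctsh had the highest log2 fold change by the scanner labels. Of the other cathepsins tested, Ctsk lay above Ctsh, at 1.5 with the 75th percentile scaling. Ctse (0.71), Ctsf (-0.57) and Ctsw (-0.19) lay below Ctsh. Cathepsin H is an aminopeptidase, known in the lung for processing a surfactant protein. Its probe was at 2.06, 2.13 and 2.13 on the arrays labelled control and at 3.29, 3.29 and 3.31 on those labelled S3d, and the gap between the groups was many times the spread within either. The log2 fold change was 1.19 ± 0.058 (SE, n = 3 per group, limma adjusted p = 2.1e-05), or 2.28-fold higher. It was 1.41 with quantile normalization, 1.00 with median centring and 1.61 with the normexp background correction (limma adjusted p = 0.042), under which Ctsh was the 1 member probe past the threshold. The normalized table gave -1.41 by its own labels (limma adjusted p = 2.0e-05), from control columns at 13.06, 13.12 and 13.12 and S3d columns at 11.64, 11.72 and 11.72. With the 75th percentile and with median centring, Ctsh and Lamp2 were the only members that were higher past the threshold by the scanner labels.

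Ctsb and Ctsl encode widely expressed cysteine proteases that cut within protein chains. Ctsb was at 7.79, 7.72 and 7.63 on the arrays labelled control and at 6.80, 6.85 and 6.87 on those labelled S3d, without overlap. The log2 fold change of -0.87 ± 0.069 (SE, n = 3 per group, limma adjusted p = 9.4e-05) was not kept with quantile normalization, which gave 0.05 (limma adjusted p = 0.61). The normalized table gave -0.06 (limma adjusted p = 0.56), so Ctsb has no direction that holds over these scalings. The brighter Ctsl probe, A_43_P11739, was at 3.39, 3.30 and 3.06 against 3.51, 3.4 and 3.41, with a log2 fold change of 0.19 ± 0.10 (SE, n = 3 per group, limma adjusted p = 0.14). With quantile normalization it was 0.50 (limma adjusted p = 0.0024), and in the normalized table -0.49 (limma adjusted p = 0.0033). The dimmer probe, A_44_P109600, was at 1.91, 1.74 and 1.54 against 1.87, 1.88 and 1.83, overlapped and did not pass the test (0.13, limma adjusted p = 0.28). The spread within the control group was wider than within S3d for both probes.

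Ctss encodes cathepsin S, which antigen-presenting cells use to degrade the invariant chain of MHC class II. Its probe A_44_P1004731 was at 5.76, 5.79 and 5.79 on the arrays labelled control and at 5.07, 5.14 and 5.18 on those labelled S3d. Its probe A_44_P355928 was at 5.39, 5.44 and 5.34 against 4.44, 4.65 and 4.64. Neither probe overlapped between groups, with log2 fold changes of -0.65 ± 0.061 and -0.81 ± 0.081 (SE, n = 3 per group, limma adjusted p = 0.00018 and 0.00024). With quantile normalization they were -0.10 (limma adjusted p = 0.24) and -0.34 (limma adjusted p = 0.017), and the normalized table gave 0.08 and 0.35. The direction was the same for both probes, whereas the call of the first depended on the scaling. Neither passed with the normexp background correction (limma adjusted p = 0.81 and 0.72).

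Ctsc encodes dipeptidyl peptidase 1, which activates the granule proteases of immune cells. It was at 4.81, 4.65 and 4.52 on the arrays labelled control and at 4.11, 3.91 and 4.15 on those labelled S3d. The groups did not overlap, and the log2 fold change was -0.60 ± 0.11 (SE, n = 3 per group, limma adjusted p = 0.0028). With quantile normalization it was -0.18 (limma adjusted p = 0.16) and 0.21 in the normalized table (limma adjusted p = 0.11). Ctsz encodes cathepsin Z, a carboxypeptidase, and was the least even member, at 3.43, 3.15 and 2.80 on the arrays labelled control and at 1.88, 1.93 and 2.84 on those labelled S3d. The third S3d array lay above the lowest control array, so the groups overlapped. The log2 fold change was -0.91 ± 0.30 (SE, n = 3 per group, limma adjusted p = 0.034). This call was lost when control 1, control 2, S3d 1 or S3d 2 was left out (limma adjusted p between 0.082 and 0.099), with the replicate number as a block (0.085) and with quantile normalization (0.10).

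**Figure D2:**
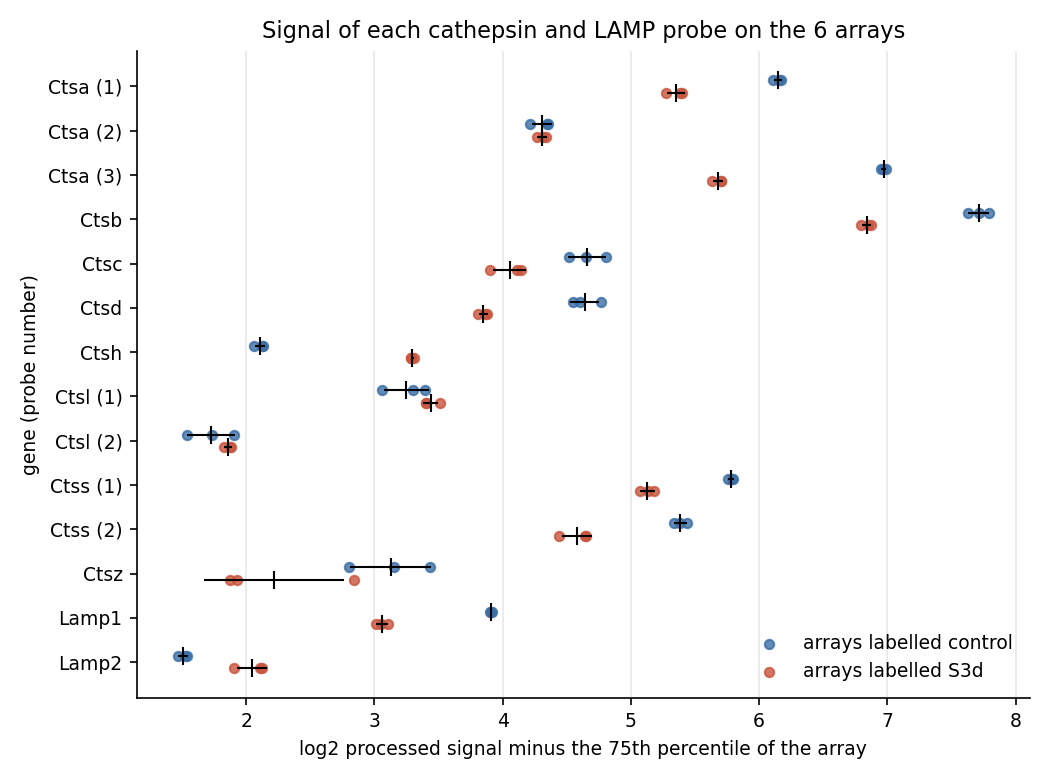
Level of each probe on each array (points), with the mean (tick) and SD (bar) of the 3 arrays of each group, as log2 of the processed signal relative to the 75th percentile of its array. Numbers in brackets tell the probes of a gene apart, and levels can be compared between groups but not between probes. Ctsh and Lamp2 lie to the right on the arrays labelled S3d, and the groups overlap for Ctsz, the second Ctsa probe and the second Ctsl probe.

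In all, 9 of the 14 probes, from 7 genes, were lower on the arrays labelled S3d, beside 34.5% of all tested probes. Their log2 fold changes ran from -1.29 to -0.60, and all 9 passed a fold change of 1.5 as well, beside 23.3% of tested probes. Another 2 of the 14 were higher, beside 39.4% of tested probes, and 3 did not pass the test. Lower probes belonged to genes with an E-box before the start (Lamp1 and Ctsd) and to genes without one (Ctsa, Ctsc, Ctss and Ctsz), and the part of the E-box in the differences was not tested. Groups did not overlap for 8 lower probes, beside 36.6% of probes with values on every array. In the normalized table, 5 of 14 probes were higher in S3d by its labels (35.3% of all) and 4 were lower (34.7% of all), which are shares near those of all probes. Its log2 fold change had the opposite sign to that of the quantile-normalized scanner values for each of the 14 probes, and its size differed by at most 0.033.

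**Figure D3:**
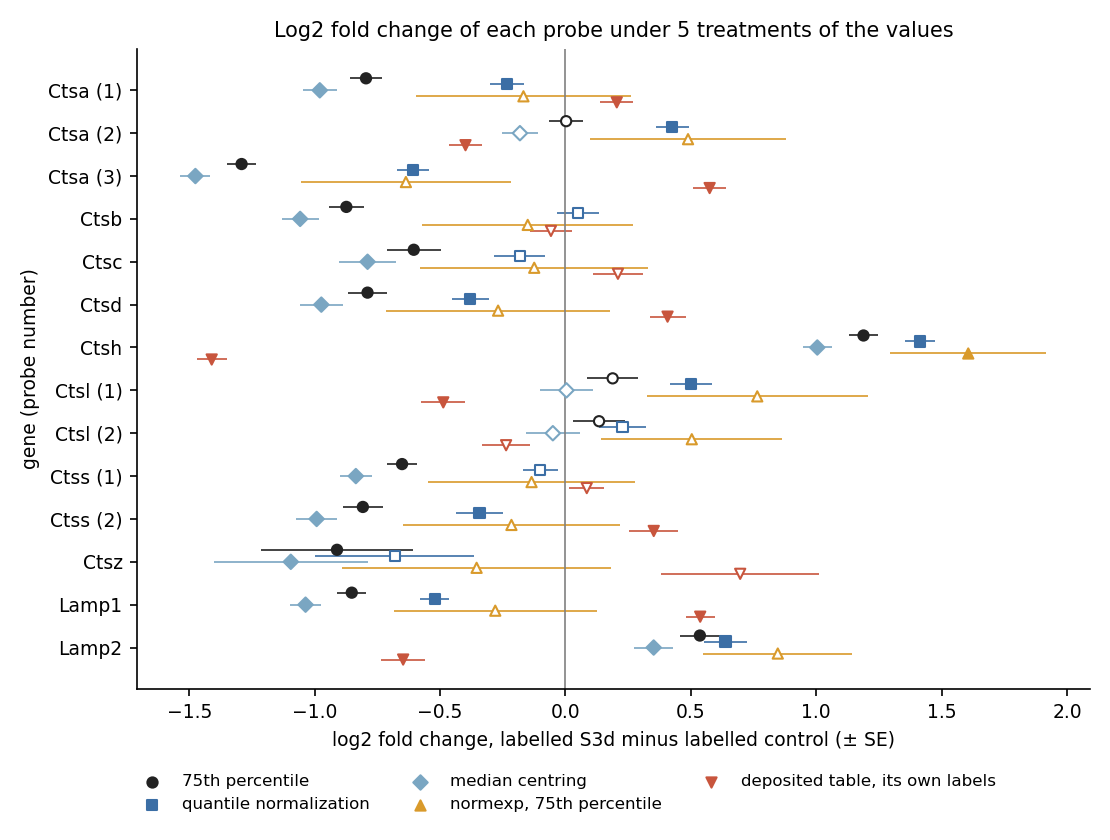
Log2 fold change (± SE) of each probe from the scanner files with 4 scalings or background corrections, and from the normalized table by its own labels. Filled symbols passed limma at an adjusted p under 0.05 and hollow ones did not. Ctsh (from 1.00 to 1.61) and Lamp2 (from 0.35 to 0.85) lie above 0 and Lamp1 (from -1.04 to -0.28) below 0 with all 4 treatments of the scanner files, and the table lies on the other side of 0.

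With the 75th percentile scaling, the fold changes moved with the brightness of the probes, for all probes as for these. Of the 14 probes, 10 belonged to the brightest decile of tested probes, whose median log2 fold change was -0.49, and 4 (Ctsh, Lamp2, Ctsz and the dimmer Ctsl probe) to the next decile, with a median of -0.16. The median over all tested probes was 0.08 and that of the dimmest decile 1.28. In the brightest decile, 65.1% of probes were lower on the arrays labelled S3d, and 8 of the 10 member probes there were. Set against the median of their own decile, Ctsh was higher by 1.35, Lamp2 by 0.70 and the brighter Ctsl probe by 0.68. Against the same median the brightest Ctsa probe stood at -0.80, Ctsz at -0.75, Lamp1 at -0.36 and Ctsc at -0.11. Quantile normalization brought the median of the brightest decile to 0.00. It left 5 lower probes past the threshold (Lamp1, Ctsd, 1 of Ctss and 2 of Ctsa) and 4 higher ones (Ctsh, Lamp2, 1 of Ctsl and 1 of Ctsa). Of all 31367 tested probes, 11160 were then lower and 10993 higher past the threshold. With the normexp background correction, 1 of the 14 probes passed, beside 5.59% of all tested probes. Under this correction the median was -1.80 in the dimmest decile and 0.07 in the brightest. The median over all tested probes was then -0.68, and none of the 14 probes lay below it. Without any scaling between arrays all 14 probes were higher, but so was the median of all tested probes, at 1.93, and 10 of the 14 lay below it. Over the 75th percentile, quantile and median scalings, 7 probes kept their direction and their call, namely those of Lamp1, Lamp2, Ctsd and Ctsh, 2 of Ctsa and 1 of Ctss. The part of brightness in the other differences was not tested.

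**Figure D4:**
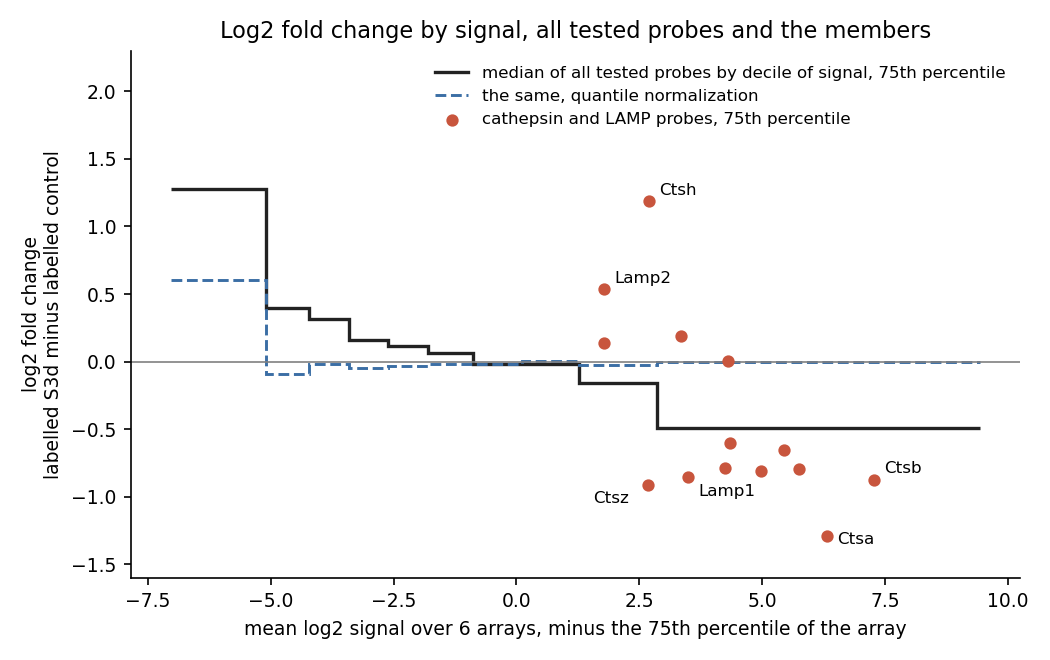
Log2 fold change of the 14 probes (points) against their mean log2 signal, with the median of all 31367 tested probes in each decile of signal as steps, for the 75th percentile (solid) and quantile normalization (dashed). The solid steps fall from 1.28 in the dimmest decile to -0.49 in the brightest, and Ctsh and Lamp2 lie above the steps where most members lie below.

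Other genes of the lysosome were read from 7 lists, each gene by its brightest probe. Of 89 tested genes, 35 (39.3%) were higher and 28 (31.5%) were lower in the group labelled S3d, close to the 39.4% and 34.5% of all tested probes. These counts moved with the scaling, to 41 higher and 26 lower with quantile normalization and to 28 higher and 43 lower with median centring. By its own labels the normalized table gave 26 higher and 41 lower. Their median log2 fold change was -0.01, and 0.16 with quantile normalization, whereas that of the cathepsin and LAMP genes was -0.72, and -0.14 with quantile normalization. The difference between the lists was not tested.

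Among 4 other cathepsins tested, 2 were higher, 1 was lower and the median was 0.26, against 1 higher and 2 lower in the normalized table. Ctsk, best known from osteoclasts, was at 1.5 (limma adjusted p = 1.6e-05) and Ctse, an aspartic protease of endosomes, at 0.71, whereas Ctsf was at -0.57 and Ctsw, a lymphocyte cathepsin, at -0.19 without passing the test. Of 6 genes for protease inhibitors, 1 was higher and 3 were lower (median -0.36), against 2 higher and 1 lower in the normalized table. Cstb and Cst3, which encode the cysteine cathepsin inhibitors cystatin B and cystatin C, were at -1.07 (limma adjusted p = 3.9e-05) and -0.98 (0.00011), the latter at -0.15 (0.12) with quantile normalization. Serpinb9, an inhibitor of granzyme B, was at 1.56, and Cst7, a cystatin of immune cells, at 0.00 (limma adjusted p = 0.97).

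Of 29 hydrolases and their activators, 14 were higher and 9 lower (median 0.16). The normalized table gave 9 higher and 15 lower (median -0.19) by its own labels. Gla, the alpha-galactosidase, was at 2.03 (limma adjusted p = 1.9e-05) and Aga, which cuts the bond between asparagine and its sugar, at 1.28. Lgmn, which encodes the asparaginyl endopeptidase that processes several cathepsins, was at -1.91 (limma adjusted p = 5.9e-05), and Acp5, an acid phosphatase of macrophages, at -1.83. Arsa, the arylsulfatase A, was at -0.77 (limma adjusted p = 0.00011) and at 0.76 in the normalized table. Of 18 other membrane proteins, 8 were higher and 6 lower (median -0.09), against 6 higher and 7 lower in the normalized table. Cln3 was at 1.55 and the cystine transporter gene Ctns at 1.28, although Ctns was at -1.26 with the normexp correction. Laptm5, of leukocyte lysosomes, was at -1.21 and the sialic acid transporter gene Slc17a5 at -1.0.

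Subunits of the V-ATPase, the proton pump that acidifies the lumen, moved both ways. Of 15, 2 were higher, 5 lower and the median was -0.10, against 6 higher and 4 lower with quantile normalization and 4 higher and 6 lower in the normalized table by its own labels. Atp6v0a1 was at -1.72 (limma adjusted p = 2.0e-05) and Atp6v1f at -1.06, whereas Atp6v1h was at 0.68, but at -1.10 with the normexp correction, and Atp6v1c1 at 0.62. Of 9 genes for the sorting of lysosomal enzymes, 5 were higher and 2 lower (median 0.21), against 2 higher and 6 lower in the normalized table. Vps35 of the retromer was at 0.99 and Nagpa, which completes the mannose 6-phosphate tag, at 0.82, whereas the receptor gene M6pr was at -1.03 and the adaptor gene Gga1 at -0.32. Of 8 regulators, 3 were higher and 2 lower (median 0.26), against 2 higher and 4 lower in the normalized table. Tfeb was at -1.07 and Lamtor2, of the lysosomal mTORC1 platform, at -1.06. The Rag GTPase genes Rraga and Rragd were at 0.82 and 0.68, and Rragd did not pass the test (limma adjusted p = 0.072). In the normalized table each of the 29 genes named by rule from these lists had the opposite sign.

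**Figure D5:**
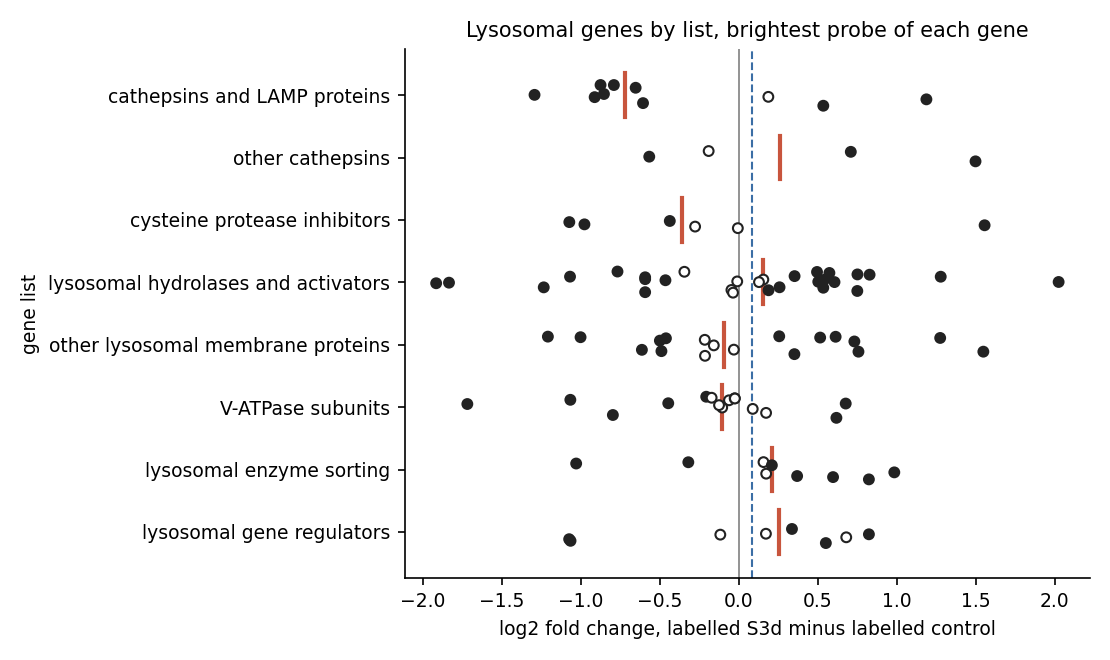
Log2 fold change of each tested gene in 8 lysosomal lists, labelled S3d minus labelled control, by its brightest probe (filled where limma passed at an adjusted p under 0.05). Orange bars mark list medians, which run from -0.72 for the cathepsins and LAMP proteins to 0.26, and the dashed line marks the median of all tested probes at 0.08.

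Markers of the cell types rich in lysosomes were mostly lower on the arrays labelled S3d with the 75th percentile scaling. For enterocytes the balance turned with quantile normalization. Of all tested probes 34.5% were lower and 39.4% higher, and of the brightest decile 65.1% were lower. Summed levels were formed with the 75th percentile scaling only, where the median log2 fold change of the brightest decile was -0.49. Of 16 markers of macrophages and other leukocytes, 9 were lower and 3 higher (median -0.37), and their summed level, relative to the 75th percentile, was 350 to 376 in control against 220 to 238 in S3d. With quantile normalization 7 were lower and 5 higher (median -0.15), and the normalized table gave 7 higher and 5 lower (median 0.14) by its own labels. They did not move together, since Ptprc, the common leukocyte antigen CD45, was at -2.64 (limma adjusted p = 1.8e-05) and Tyrobp, an adaptor of myeloid receptors, at -1.19, whereas Csf1r, the macrophage growth factor receptor, was at 0.87 and Itgam at 0.97, the latter at -0.33 with the normexp correction. Of 11 villus enterocyte markers, 8 were lower and 1 higher (median -0.96), with a summed level of 3637 to 4049 against 1643 to 1710. With quantile normalization 4 were higher and 2 lower (median 0.18), and the normalized table gave 2 higher and 4 lower (median -0.21) by its own labels. All 11 were well above background on all 6 arrays. The lowest were Fabp1, the fatty acid binding protein of enterocytes, at -1.64 and the glucose transporter gene Slc5a1 at -1.57, and the highest were Lct, the lactase, at 0.66 and Anpep at 0.07 without passing the test. With quantile normalization Fabp1 was at -0.32 and Anpep at 0.81 (limma adjusted p = 0.00075).

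Of 4 goblet and Paneth cell markers, 3 were lower and none higher (median -1.18), beside 34.5% lower of all tested probes and 65.1% of the brightest decile. Their summed level was 951 to 992 against 348 to 377. With quantile normalization 1 was higher and 2 lower (median -0.44), and the normalized table gave 2 higher and 1 lower (median 0.40) by its own labels. Tff3 was at -2.13, Pla2g2a at -1.69, Agr2 at -0.67 and Clca1 at -0.03 without passing the test, the last pair at 0.06 and 0.81 with quantile normalization. Of 7 smooth muscle markers, 3 were higher, with Myh11 at 0.98 and Synm at 0.68, and 2 lower, with Des at -1.19 and Tagln at -0.96. Of 5 proliferation markers, 3 were higher, with Ccnb1 at 0.46 and Mcm2 at 0.38, and 2 lower, with Birc5 at -1.38 and Cdk1 at -0.53. By its own labels the normalized table gave 2 higher and 4 lower smooth muscle markers, and 1 higher and 3 lower proliferation markers. Of the 20 genes named from the 5 cell type lists, 18 had the opposite sign in the normalized table. All tested markers of these 5 lists were well above background on all 6 arrays, and the part of the cell types in the cathepsin differences was not tested.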

How the data were processed

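Jejunal RNA of the control and S3d groups was measured on 6 arrays, 3 per group, and each array was counted as 1 replicate. The files that the authors deposited are the scanner output per array, from Agilent Feature Extraction (version 10.7 in the submitters' processing notes and 10.7.3.1 in the file headers), and 1 normalized table. The processed signal that the authors deposited is an intensity already corrected for background but not scaled between arrays. The deposited table holds log2 values whose sorted columns differed by at most 0.0025, as after quantile normalization. The program used for that step is not given in the sources used here.

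The main values were log2 processed signals from which the 75th percentile of each array was subtracted, without control spots and spots flagged as outliers, and with repeated spots averaged. A probe entered the test where 1 group or both had it well above background on all 3 arrays (31367 of 41012 probes). The comparison used limma 3.58.1 (lmFit and eBayes without a block, in R 4.3.3), and calls were made at a Benjamini-Hochberg adjusted p under 0.05. The fit was tested on simulated data first. Probes were named by RefSeq accession through the table of GRCr8, which also gave the promoters. Figures were drawn in Python 3.11.15 with matplotlib 3.10.9.

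All probes of the 10 genes are given. Of each other list, the 2 genes with the highest and the 2 with the lowest log2 fold change among those above background on all 6 arrays are named, and Arsa besides. The 10 genes, the 7 lysosomal lists and the 5 cell type lists were chosen with earlier results of these data known.

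Alternative scalings were quantile normalization, centring on the median and none, and normexp with an offset of 50 was the alternative background correction. It used the median signal, since the scanner files give no mean signal. Other alternatives were 2 filters on dim probes, keeping flagged spots, the table by its own labels, the replicate number as a block, the analysis of variance that the methods name, an intensity trend, a fold threshold of 1.5, the mean over a gene's probes, and leaving out each array. No fit had the slide as a block, because each slide holds 1 group. Normexp with quantile normalization, the ratio of Lamp2 to Lamp1 and the deciles of signal were added after seeing the data.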

Additional observations from a re-analysis of the deposited data

How the results depend on the processing

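The precision is limited by 3 arrays per group, and slide, scan and group cannot be told apart. With the normexp correction 1 member probe, 1754 probes of all tested and 2 genes of the other lysosomal lists passed, against 11, 23186 and 63, and 31.1% of the passing probes were higher in S3d, against 53.3%. Normexp followed by quantile normalization left 10 member probes, 21755 of all and 68 of the lysosomal genes past the threshold. The share of higher probes was 43.7% with median centring and 98.1% without scaling, where all 14 member probes passed. Leaving out 1 array gave between 10 and 11 member probes.

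The normalized table by its own labels turned the sign of 13 of the 14 probes. They were Ctsa at 0.20 and 0.58 (A_44_P1010500 and A_44_P474755) and at -0.40 (A_44_P364672), Ctsc at 0.21, Ctsd at 0.41, Ctsh at -1.41, Ctsl at -0.49 and -0.24, Ctss at 0.08 and 0.35, Ctsz at 0.70, Lamp1 at 0.54 and Lamp2 at -0.65. Without scaling, Ctsa was at 1.05 and 0.55, Ctsb at 0.97, Ctsc at 1.24, Ctsd at 1.06, Ctss at 1.19 and 1.04, Ctsz at 0.94 and Lamp1 at 0.99, where the raw signals of the arrays labelled S3d were brighter throughout. Ctsb turned to 0.051 with quantile normalization and to 0.14 with normexp and quantile normalization together. Values near 0 also turned, with median centring for Ctsa A_44_P364672 (-0.18) and Ctsl A_44_P109600 (-0.050). Leaving out 1 array gave Ctsa A_44_P364672 between -0.042 and 0.027. Apart from the normalized table, the causes were not tested.

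Arrays with the same replicate number did not deviate together (correlations of 0.020, 0.022 and -0.049), so they share only a number. With the replicate block 10 member probes passed, and 22212 of all tested probes. The call lost was that of Ctsz (limma adjusted p = 0.085), which the analysis of variance named in the methods also lost (adjusted p = 0.088). The filters on dim probes, the intensity trend and the outlier spots changed no member call.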
